A study of Mus musculus with 5 samples.

Results

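Mki67, the gene of the Ki-67 protein by which dividing cells are commonly recognised, was at a lower level in both libraries of haematopoietic stem cells (HSCs) from RankCre-ki mice than in any wild-type library. Most other genes of mitosis did not share this pattern. The set described here holds 42 genes that act in the G2 phase or in mitosis, chosen by gene name, out of 55335 genes in the expression table. All 42 were found by name. Of these, 37 had a level of at least 1 TPM (the length-corrected share of a gene in the transcripts of its library) in at least 2 libraries and were tested, against 13981 genes tested in all. Plk1, Hmmr, Aurkb, Kif4 and Kif20a did not reach this level and are described by their values alone.

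Bulk RNA sequencing was performed on bone marrow HSCs of mice 3 weeks old, in 3 wild-type and 2 RankCre-ki libraries. HSCs were cells without lineage markers that carried Kit, Sca-1 and CD150 and lacked CD48. RankCre-ki animals carry a Cre recombinase in the Rank gene together with 1 floxed and 1 null allele of Csf1r, the receptor that embryonic macrophages require. The study describes this Cre as active in embryonic macrophages and not in HSCs, so the animals lack these macrophages and their osteoclasts, and the question is how HSCs that matured without them differ. The strain is labelled C57BL/6J in both groups, although the methods place the Csf1r null line on C3H/HeJ. The numbers at the end of the library names, which lie within the number of cells stated in the methods, were 90, 90 and 80 for wild-type and 80 and 86 for RankCre-ki. The labels do not state whether each library came from a separate animal, so p-values measure only the spread between these libraries.

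Cells enter mitosis when cyclin B binds the kinase Cdk1. The chromosomes are then condensed, attached to the spindle through their kinetochores and held by the spindle checkpoint until every chromosome is attached, after which Cdc20 directs the destruction of cyclin B and the cell divides. Most bone marrow HSCs of adult mice are quiescent, whereas HSCs of very young mice divide more often. Transcripts of this machinery are made mainly in G2 and M phase, under promoters that carry a short element called the cell cycle genes homology region (CHR) and, often, CCAAT boxes.

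The promoters of these genes show what the members share beyond function. RefSeq promoter windows (GRCm38.p6), reaching from 250 bases before to 50 bases after the start, were found for 37 of the 42 members, as 40 windows, because Ect2, Bub3 and Prc1 have 2 each. Windows were searched on both strands for the CHR forms TTTGAA and TTTAAA, for CCAAT and for the E2F site GCGGGAA, and in 2 of the 40 windows matches shared a base. TTTGAA was present in 31 of the 40 windows (77.5%), against 17.9% of all 32851 windows kept. The form TTTAAA was present in 20% against 13.2%, and CCAAT in 80% against 37.4%. None of the member windows held GCGGGAA, which 4.60% of all windows held. A match is a description of the letters and not a shown binding site. The windows of 4 members follow, with every match in capitals. They are Mki67, low in RankCre-ki libraries; Bub1b and Cenpa, in which RankCre-ki exceeded every wild-type library; and Plk1, detected in a single library.
Mki67: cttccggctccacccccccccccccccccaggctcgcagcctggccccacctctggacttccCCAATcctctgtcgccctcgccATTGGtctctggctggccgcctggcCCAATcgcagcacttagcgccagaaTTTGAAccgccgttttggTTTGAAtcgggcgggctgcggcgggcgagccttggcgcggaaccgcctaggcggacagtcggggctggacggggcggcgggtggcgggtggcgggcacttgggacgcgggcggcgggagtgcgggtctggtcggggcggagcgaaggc
Bub1b: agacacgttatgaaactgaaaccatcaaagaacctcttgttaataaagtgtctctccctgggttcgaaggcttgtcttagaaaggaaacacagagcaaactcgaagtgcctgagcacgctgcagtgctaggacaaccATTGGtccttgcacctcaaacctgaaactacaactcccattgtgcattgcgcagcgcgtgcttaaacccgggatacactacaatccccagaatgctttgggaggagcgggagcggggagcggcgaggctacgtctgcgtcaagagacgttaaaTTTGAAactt
Cenpa: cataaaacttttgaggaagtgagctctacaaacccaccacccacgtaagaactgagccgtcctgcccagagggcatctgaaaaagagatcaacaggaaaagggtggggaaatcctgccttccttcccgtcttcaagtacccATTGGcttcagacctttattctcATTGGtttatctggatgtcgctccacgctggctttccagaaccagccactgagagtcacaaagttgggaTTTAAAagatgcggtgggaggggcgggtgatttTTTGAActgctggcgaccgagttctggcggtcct
Plk1: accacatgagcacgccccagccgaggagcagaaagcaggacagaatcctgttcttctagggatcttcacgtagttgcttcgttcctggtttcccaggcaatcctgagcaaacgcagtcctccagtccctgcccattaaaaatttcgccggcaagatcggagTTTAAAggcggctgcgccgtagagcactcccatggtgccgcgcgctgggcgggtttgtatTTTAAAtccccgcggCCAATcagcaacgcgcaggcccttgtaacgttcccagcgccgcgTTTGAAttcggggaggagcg
The Mki67 window lies at chr7:135716330-135716629 on the minus strand, that of Bub1b at chr2:118597961-118598260 on the plus strand, that of Cenpa at chr5:30666636-30666935 on the plus strand and that of Plk1 at chr7:122159185-122159484 on the plus strand. Mki67 held TTTGAA at 116 and 98 bases before the start, and 3 CCAAT boxes further upstream. In Bub1b the CHR lay 41 bases after the start, in Cenpa 17 bases before and 17 after it, and in Plk1 at 89 and 29 bases before and 31 after it. All 4 printed windows held both TTTGAA and CCAAT, whereas that of Bub1, not shown, held CCAAT but neither CHR form.

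The libraries differed in ways that touch every result. At least 1 TPM was found for 9021 to 11084 genes in the wild-type libraries as against 12801 in RankCre-ki replicate 1 and 16386 in RankCre-ki replicate 2. TPM do not show how deeply a library was sequenced, so only the spread between libraries bears on precision. The library names form 2 series, with wild-type replicate 1 and RankCre-ki replicate 2 in series 1 and the other 3 libraries in series 2. The methods name 2 tagmentation kits for sets of the same composition, and that the series are those sets is an inference. RankCre-ki replicate 2 is labelled female but held 62.5 TPM of the Y-linked gene Eif2s3y and 0.0229 TPM of Xist. Wild-type replicate 1, labelled male, had 41.6 and 0.0273 TPM of these genes, and the 3 libraries of series 2 held Xist at 5.16 to 22.5 TPM, so name series and sex by these genes coincide and cannot be told apart. Csf1r was at 2.39, 0 and 0.234 TPM in wild-type libraries against 17.5 and 6.46 TPM with RankCre-ki, and the groups are therefore named by their labels. The 9 HSC markers examined were all detected at 1 TPM or more, except Fgd5 in wild-type replicate 1. Of 22 markers of progenitors and mature cells outside the gate, 7 were listed at 0 in every library. The summed level of that list was 294 to 517 TPM for wild-type, 602 TPM for RankCre-ki replicate 1 and 1142 TPM for RankCre-ki replicate 2. These sums were apart because of a single globin gene, Hbb-bt. Its wild-type values were 36.2, 124 and 109 TPM, and its RankCre-ki values 251 and 632 TPM. With Hbb-bt left out, RankCre-ki replicate 1 would lie below wild-type replicate 1. The latter held 421 TPM of Prtn3, against 305 and 388 TPM with RankCre-ki. Cd48, which the sort excludes on the surface, was listed at 0 in every wild-type library, with 4.92 and 5.62 TPM in RankCre-ki. Klf1, an erythroid transcription factor, was at 46.3 TPM in RankCre-ki replicate 2 and at most 1.73 TPM elsewhere. Of the 10 macrophage markers, Adgre1 and C1qc were listed at 0 throughout, and the list summed to 3.64 to 54.3 TPM in wild-type libraries against 22.6 and 48.6 TPM with RankCre-ki. The part of these cells in the results below was not tested.

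Mki67 (ENSMUSG00000031004, chromosome 7, 135689784 to 135716361, GRCm38) encodes a protein that coats mitotic chromosomes and keeps them apart. Its level was 19.7, 5.02 and 7.71 TPM in the wild-type libraries (replicates 1, 2 and 3, the order kept throughout) against 0.614 and 0.202 TPM with RankCre-ki (replicates 1 and 2). The groups did not overlap, and the highest RankCre-ki value was below the lowest wild-type value. The log2 fold change of TPM + 1 was -2.88 ± 1.26 (SE), and limma gave a p of 0.0518, or 0.733 after adjustment over all genes by Benjamini-Hochberg, so the difference did not pass the threshold, set at adjusted p-values up to 0.1 with log2 fold changes beyond 2 in size. Relative to the median of all genes, 0.52, it was -3.40. In name series 1 the difference was -4.11 and in series 2 it was -2.17. Across all 15 settings of the analysis its fold change stayed below 0, between -4.32 and -2.38, with adjusted p-values of 0.389 or more, while the unadjusted p ran from 0.0122 to 0.303 and was under 0.05 in 9 of the 15. It was the lowest fold change among the 37 tested members. In bulk samples, a different share of dividing cells and a different amount of RNA per cell cannot be told apart. A predicted gene on the opposite strand, Gm45240, overlaps Mki67, and whether strand was used in making the TPM is not given in the sources used here.

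Among the 37 tested members, 0 passed the threshold in limma, as did 0.0% of all 13981 genes. At an unadjusted p under 0.05 there were 2 members higher in RankCre-ki libraries and 0 lower, where 6.34% of all genes were higher and 0.529% lower. Which members these were depended on the setting: the 2 were Bub1b and Bub1, whereas without a filter, with a filter of 5 TPM or after quantile normalization Mki67 alone was under 0.05. In 7 members the 2 RankCre-ki values exceeded every wild-type value, against 18.8% of all genes, and for 3 both lay below, against 3.71%. Of the 7, Bub1b, Bub1, Tpx2 and Cenpf were under 1 TPM in every wild-type library and passed the filter through the RankCre-ki libraries, so they had to lie higher there. The fold change was above 0 for 30 of 37 members (81.1%), against 72.3% of all genes. The median over the members was 0.79, and that over all genes was 0.52, a difference of 0.28. This difference did not keep its sign: without wild-type replicate 1 it was -0.25, without RankCre-ki replicate 2 it was -0.26, and with a filter of 5 TPM it was -0.04.

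**Figure D1:**
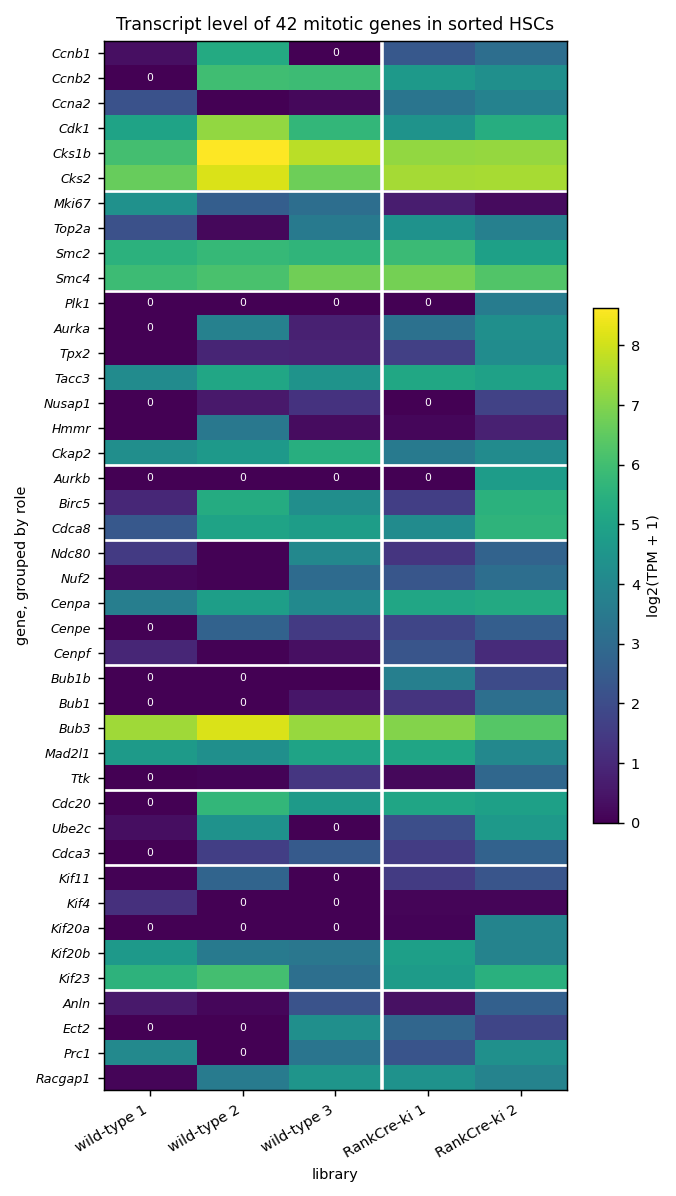
Levels of the 42 mitotic genes as log2(TPM + 1), with genes in rows grouped by role, libraries in columns and a 0 printed where a gene was listed at 0. Wild-type replicate 1 lists 13 of the 42 genes at 0 and RankCre-ki replicate 2 lists 0 of them. Along its row, Mki67 is darker in both RankCre-ki columns than in the wild-type columns.

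**Figure D2:**
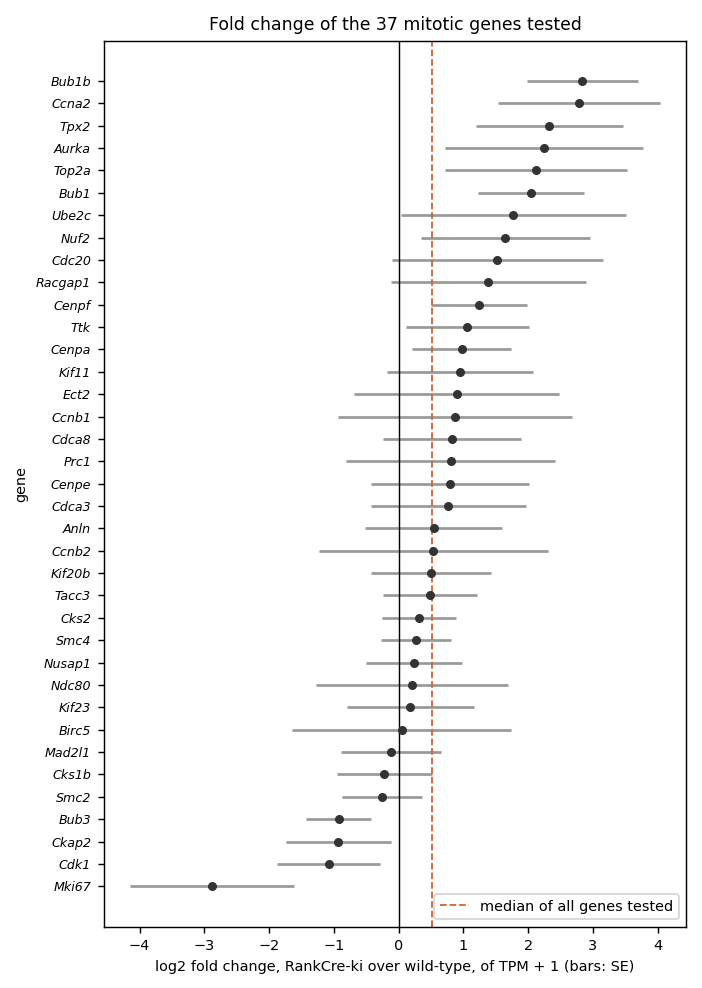
Log2 fold change of TPM + 1, RankCre-ki over wild-type, for the 37 tested members, with bars of 1 SE and a dashed line at the median of all genes tested, 0.52. Mki67 lies lowest at -2.88 and Bub1b highest at 2.83.

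The cyclins and their kinase were uneven between libraries. Ccnb1, a cyclin B that drives entry into mitosis, was at 0.278, 37.4 and 0 TPM in wild-type libraries against 4.14 and 7.67 TPM with RankCre-ki. Its paralog Ccnb2 was at 0, 62.1 and 58.8 TPM against 24.7 and 18.9 TPM. Thus wild-type replicate 3 held Ccnb2 without Ccnb1, wild-type replicate 1 held almost neither, and the groups overlapped for both. Ccna2, the cyclin A of S phase and early mitosis, was at 3.53, 0.0213 and 0.140 TPM in wild-type libraries against 9.28 and 13.04 TPM with RankCre-ki, and the groups did not overlap. Its fold change on the log2 scale was 2.79 ± 1.25 (SE), and limma gave a p of 0.0561, or 0.747 after adjustment over all genes. Exosc9 overlaps Ccna2 on the opposite strand. Cdk1 itself was detected in every library, at 20.7 to 148 TPM.

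Cks1b and Cks2, small proteins that bind Cdk1, were the most abundant members together with Bub3. Cks1b was at 65.1, 394 and 212 TPM in wild-type libraries against 151 and 152 TPM with RankCre-ki. The corresponding values of Cks2 were 98.1, 280.1 and 105 TPM and 175 and 180.5 TPM. The RankCre-ki libraries lay inside the wild-type range for both. The log2 fold changes were -0.22 ± 0.73 (SE) and 0.32 ± 0.57 (SE).

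Next to Mki67 in the group of chromosome structure, Top2a, the topoisomerase that untangles sister chromatids, was at 3.45, 0.142 and 10.6 TPM in wild-type libraries against 20.04 and 12.6 TPM with RankCre-ki. Both RankCre-ki values lay above all wild-type values, opposite in direction to Mki67. The fold change on the log2 scale was 2.12 ± 1.41 (SE), and its limma p was 0.171. The ratio of Mki67 to Top2a was 5.71, 35.3 and 0.729 with wild-type against 0.0306 and 0.0160 with RankCre-ki. It had to separate the groups, because both genes do so in opposite directions. Low values entered it, with Top2a at 0.142 TPM in wild-type replicate 2 and Mki67 under 1 TPM with RankCre-ki. Smc2 and Smc4, the core pair of condensin, were detected in every library. Smc2 was at 45.4, 54.2 and 49.3 TPM against 58.6 and 28.96 TPM, and Smc4 at 59.7, 69.8 and 108 TPM against 111 and 76.5 TPM. Neither separated the groups.

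**Figure D3:**
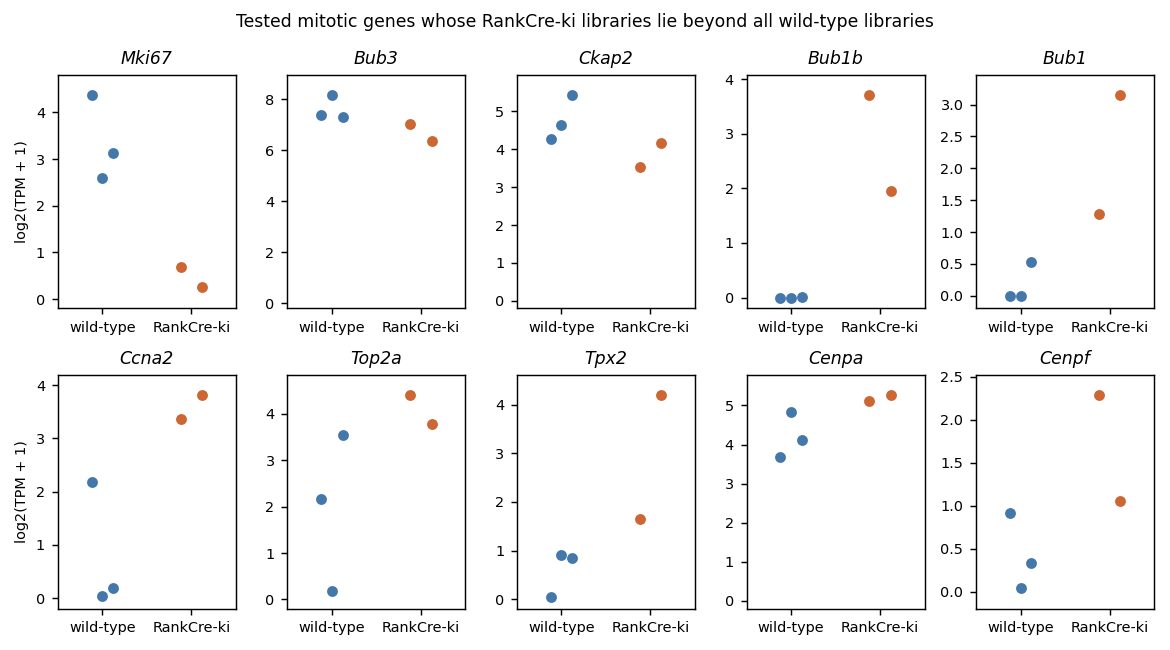
Level in each library, as log2(TPM + 1), of the 10 tested members whose RankCre-ki points (orange) lie beyond all wild-type points (blue). Mki67, Bub3 and Ckap2 lie lower in RankCre-ki libraries and the other 7 lie higher, of which Cenpf had a fold change of -0.20 after quantile normalization.

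Among the mitotic kinases and spindle assembly factors, Plk1, the kinase that matures centrosomes and promotes mitotic entry, was listed at 0 in 4 libraries and at 11.2 TPM in RankCre-ki replicate 2. Aurka, which acts at spindle poles, ranged from 0 to 12.8 TPM in wild-type libraries, against 8.39 and 18.8 TPM with RankCre-ki. Tpx2, its activator on the spindle, was at 0.0246, 0.868 and 0.796 TPM in wild-type libraries against 2.12 and 17.4 TPM with RankCre-ki. The groups did not overlap for Tpx2, whose log2 fold change was 2.33 ± 1.14 (SE), at a limma p of 0.0754. Ckap2, a microtubule-associated protein, had the opposite order, at 18.3, 23.8 and 41.97 TPM against 10.6 and 16.8 TPM. Its fold change on the log2 scale was -0.93 ± 0.82 (SE), and its limma p was 0.288. Tacc3 was found in all 5 libraries, at 16.7 to 34.3 TPM, while Nusap1 and Hmmr were at 1 TPM or more in 2 libraries and 1 library.

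The chromosomal passenger complex corrects wrong attachments of chromosomes to the spindle. Its kinase Aurkb was listed at 0 in 4 libraries and at 26.0 TPM in RankCre-ki replicate 2. Birc5 (survivin), its partner, was at 0.949, 38.2 and 18.1 TPM in wild-type libraries against 2.01 and 44.6 TPM with RankCre-ki. Cdca8 (borealin) was found in every library, at 4.15 to 48.2 TPM. In the 4 libraries that listed the kinase at 0, Cdca8 was thus still found.

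At the kinetochore, Ndc80, which grips microtubules, was at 1.74, 0.0377 and 15.1 TPM in wild-type libraries against 1.52 and 5.76 TPM with RankCre-ki. Its partner Nuf2 was at most 7.63 TPM in any library. Cenpa, the histone H3 variant that marks the centromere, was at 11.9, 27.6 and 16.2 TPM in wild-type libraries against 33.5 and 37.2 TPM with RankCre-ki. The groups did not overlap for Cenpa, and the log2 fold change was 0.97 ± 0.77 (SE), at a limma p of 0.241. Cenpf, a large protein of the outer kinetochore, was also above all wild-type libraries, at 0.886, 0.0252 and 0.264 TPM against 3.89 and 1.07 TPM. Its fold change on the log2 scale was 1.24 ± 0.74 (SE), and it was -0.20 after quantile normalization. The motor Cenpe was at 0 to 5.53 TPM and overlapped between the groups.

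The spindle checkpoint held both members with an unadjusted p under 0.05. Bub1b (ENSMUSG00000040084, chromosome 2, 118598211 to 118641591), which encodes the checkpoint protein BubR1, was at 0, 0 and 0.0115 TPM in wild-type libraries against 12.1 and 2.89 TPM with RankCre-ki. The difference of log2(TPM + 1) was 2.83 ± 0.85 (SE), and limma gave a p of 0.0107, or 0.521 after adjustment over all genes. Bub1 (ENSMUSG00000027379, chromosome 2, 127801122 to 127831865), a related kinase, was at 0, 0 and 0.450 TPM against 1.44 and 7.92 TPM. Its difference was 2.04 ± 0.82 (SE), and limma gave a p of 0.0374, or 0.661 after adjustment over all genes. Both genes were nearly undetected in all wild-type libraries, and the paralogs differed in which RankCre-ki library held more, replicate 1 for Bub1b and replicate 2 for Bub1. The filter on low values fixed their direction, as stated above.

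The third Bub protein ran the other way. Bub3, which carries Bub1 and BubR1 to kinetochores, was at 167, 283 and 158 TPM in wild-type libraries against 130.4 and 80.6 TPM with RankCre-ki. Its fold change on the log2 scale was -0.92 ± 0.50 (SE), and limma gave a p of 0.102, or 0.874 after adjustment over all genes, and it was below 0 in all 15 settings. Fgfr2 overlaps Bub3 on the opposite strand. Mad2l1, the checkpoint protein that inhibits Cdc20, was at 15.5 to 32.6 TPM in all libraries, and the kinase Ttk at 0 to 6.29 TPM.

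Cdc20, the activator of the ubiquitin ligase that ends mitosis, was at 0, 51.1 and 24.7 TPM in wild-type libraries against 32.8 and 28.7 TPM with RankCre-ki. Its log2 fold change of 1.52 ± 1.63 (SE) rested on wild-type replicate 1, without which it was -0.21. Ube2c, the conjugating enzyme of that ligase, ranged from 0 to 23.6 TPM and Cdca3 from 0 to 5.63 TPM. For all 3 genes the groups overlapped.

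Among the kinesin motors, Kif11, which pushes spindle poles apart, was at 0.0374, 5.87 and 0 TPM in wild-type libraries against 1.86 and 3.80 TPM with RankCre-ki. Kif20a, a motor of cytokinesis, was listed at 0 in every wild-type library, against 0.0535 and 13.9 TPM with RankCre-ki. Its paralog Kif20b was at 23.7, 10.4 and 9.62 TPM against 28.1 and 13.4 TPM, so RankCre-ki replicate 2 alone held both at similar levels. Kif23, at 7.87 to 65.6 TPM, was found in every library, and Kif4 reached 1 TPM in wild-type replicate 1 alone. Of the remaining genes of cytokinesis, Anln (anillin, a scaffold of the contractile ring) was at 0.489, 0.107 and 3.58 TPM against 0.316 and 5.21 TPM. Ect2, Prc1 and Racgap1 were each at 0 or below 0.1 TPM in at least 1 wild-type library and at 2.49 TPM or more in both RankCre-ki libraries. All 4 overlapped between the groups.

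The number of members detected separated the groups, whereas their summed level did not. At least 1 TPM was found for 19, 25 and 28 of the 42 members in wild-type replicates 1 to 3 and for 33 and 39 in RankCre-ki replicates 1 and 2. The members summed to 662, 1703 and 1045 TPM in wild-type libraries against 995 and 1089 TPM with RankCre-ki, so the sums overlapped while the numbers detected did not. RankCre-ki replicate 2 held the highest value of 17 members and wild-type replicate 2 that of 11. Among tested genes, the share at 1 TPM or more was 48.6%, 64.9% and 75.7% of members in the wild-type and 89.2% and 97.3% in the RankCre-ki libraries. For all tested genes the shares were 68.9%, 62.5% and 75.6% against 84.0% and 91.0%, so detection also differed between the libraries for genes in general. For the 52 tested genes of a list of other mitotic genes, read further below, they were 48.1%, 61.5% and 80.8% against 78.8% and 88.5%. There wild-type replicate 3 lay above RankCre-ki replicate 1, so detection of that list did not separate the groups. Plk1, Aurkb and Kif20a were at 10 TPM or more in RankCre-ki replicate 2 and below 0.1 TPM in all others, a pattern shared by 348 genes of the whole table, against 49 to 159 genes for the other libraries. The members that reached 1 TPM in all 5 libraries were Cdk1, Cks1b, Cks2, Smc2, Smc4, Tacc3, Ckap2, Cdca8, Cenpa, Bub3, Mad2l1, Kif20b and Kif23.

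**Figure D4:**
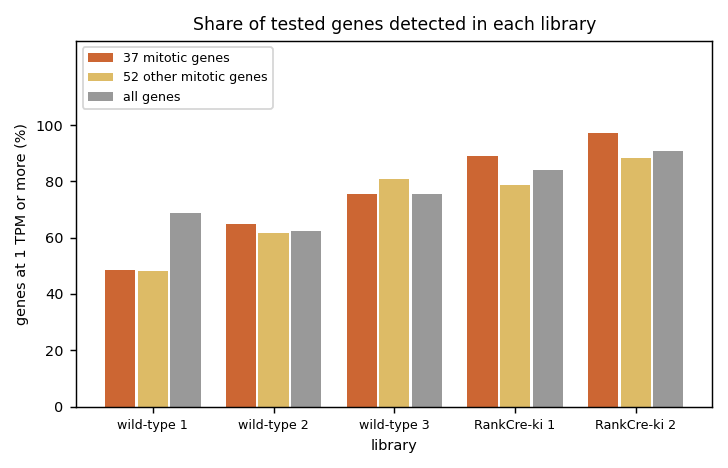
Share of genes at 1 TPM or more in each library, for the 37 tested mitotic genes, the 52 other tested mitotic genes and all 13981 tested genes. The share of the 37 genes is 48.6% in wild-type replicate 1 and 97.3% in RankCre-ki replicate 2, and that of all genes is 68.9% and 91.0%. That of the 52 other mitotic genes is 80.8% in wild-type replicate 3 and 78.8% in RankCre-ki replicate 1.

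Within the name series the members behaved differently. In series 1, RankCre-ki replicate 2 against wild-type replicate 1, the median difference of log2(TPM + 1) over the tested members was 1.70, against 0.53 for all genes. In series 2, RankCre-ki replicate 1 against the mean of wild-type replicates 2 and 3, it was 0.12, against 0.40 for all genes. Higher in both series were 16 of 37 members (44.5% of all genes), lower in both were 3 (12.9% of all genes), higher in series 1 alone 14 (19.0% of all genes) and higher in series 2 alone 4 (20.1% of all genes). The 3 that were lower in both were Mki67, Bub3 and Ckap2. Bub1b, Ccna2 and Top2a had differences of 1.61 or more in both series. The groups did not overlap for any of these named genes, so their direction in both series was fixed beforehand. Birc5 had the widest contrast, at 4.55 in series 1 and -3.19 in series 2. Series 1 has 1 library of each group, so these differences carry no replicate error. The series also differ in Eif2s3y and Xist, as given above.

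**Figure D5:**
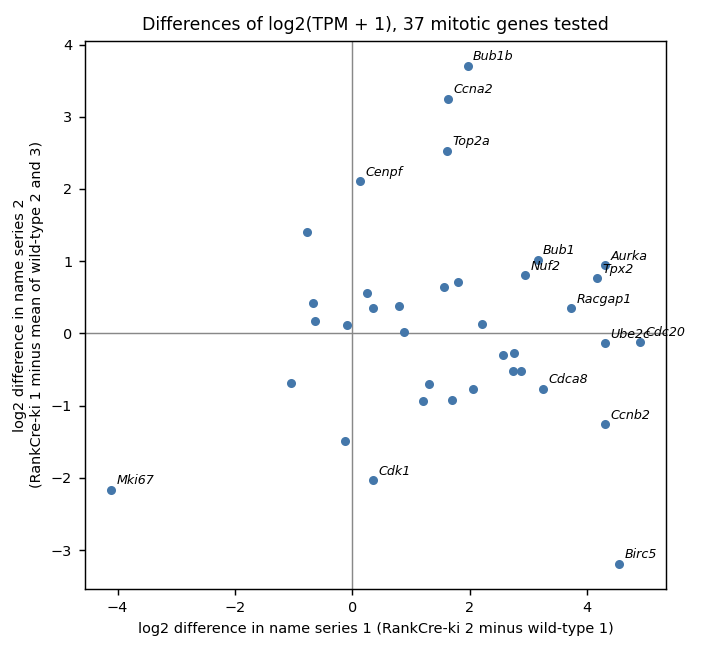
Difference of log2(TPM + 1), RankCre-ki minus wild-type, in name series 1 (horizontal) and name series 2 (vertical), 1 point per tested mitotic gene. Mki67 lies farthest to the left, at -4.11 and -2.17, and Birc5 lies at 4.55 and -3.19.

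A list of 65 other mitotic genes, of which 52 were tested, was read beside the members. In limma 0 of them passed the threshold, 2 were higher and 0 lower at an unadjusted p under 0.05, and the median log2 fold change was 0.50, against 0.52 for all genes. Both RankCre-ki values exceeded every wild-type value for 5 of them, against 18.8% of all genes, and were below every one for 1, against 3.71%. Arhgap11a, a RhoA regulator, was listed at 0 in every wild-type library, against 2.88 and 3.10 TPM with RankCre-ki, and limma gave a p of 0.0099, or 0.521 after adjustment over all genes. Shcbp1 was at 0.304, 0.0316 and 0.126 TPM against 3.74 and 11.7 TPM, and limma gave a p of 0.0158, or 0.531 after adjustment over all genes. Both passed the filter through the RankCre-ki libraries. The smallest p-values in the other direction were those of Pttg1 (securin, which holds back the separation of sister chromatids) and Ckap5, a microtubule polymerase. Pttg1 was at 227, 255 and 113 TPM in wild-type libraries against 90.7 and 107 TPM with RankCre-ki. Ckap5 was at 24.7, 44.2 and 37.7 TPM against 28.7 and 2.37 TPM, so its groups overlapped.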

How the data were processed

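RNA of sorted HSC pools was turned into full-length cDNA by oligo(dT) priming and template switching, which was amplified and then tagmented for sequencing. The deposited values are TPM per gene. According to the study's methods the authors aligned reads with gsnap to mm10 and counted fragments with featureCounts (2.0.1 in the submitters' processing notes). The software that made the TPM is not given in the sources used here. Values as low as 1.13e-10 TPM occurred, so paralogs and overlapping genes may share signal. The 92 spike-in rows, all at 0, were removed.

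Genes at 1 TPM or more in 2 libraries were tested on log2(TPM + 1), a scale that understates changes of low genes, with limma 3.58.1 in R 4.3.3 (lmFit, eBayes with trend, two-sided, no covariate) and Benjamini-Hochberg adjustment over all 13981 genes. The threshold was the study's, set at adjusted p-values up to 0.1 with log2 fold changes beyond 2 in size. The code was tested on simulated data. The members, the gene lists and the naming rule were chosen with earlier results of these data known. All 42 members are named by role. Values in every library are given for Mki67, the first gene of each role, members with p under 0.05, members whose groups do not overlap, the 3 most abundant, paralogs that are compared and, for other mitotic genes, the 2 with the smallest p in each direction. Birc5 was singled out after its values were seen. Annotation was GENCODE M21 (GRCm38). Alternatives covered the pseudocount, filter, scaling, blocks, trend and leaving out each library, and non-overlap counts without single libraries were added after seeing the data.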

Additional observations from a re-analysis of the deposited data

Results flagged for a closer look

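For 12 of the 42 members the RankCre-ki library differed from every wild-type library of its name series in one direction in series 1 and in the opposite direction in series 2. The difference between the series was not tested. Among tested genes this held for 10 of 37 members (27.03%) and for 23.5% of all genes, a similar share. Each pair of values below gives the difference of log2(TPM + 1), RankCre-ki minus wild-type, in series 1 and then in series 2. Higher in series 1 and lower in series 2 were Ccnb2 4.31 and -1.26, Cdk1 0.36 and -2.03, Cks1b 1.21 and -0.94, Nusap1 1.70 and -0.92, Hmmr 0.78 and -1.72, Birc5 4.55 and -3.19, Cdca8 3.26 and -0.76 and Cdca3 2.73 and -0.51. Lower in series 1 and higher in series 2 were Smc2 -0.63 and 0.18, Mad2l1 -0.68 and 0.42, Kif4 -1.09 and 0.11 and Kif20b -0.78 and 1.40.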

How the results depend on the processing

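With 3 against 2 libraries and unknown depth, small differences between the groups could not be detected. The number of members past the threshold was 0 in every setting run. The number at an unadjusted p under 0.05, 2 in the reported analysis, was 1 without a filter, 1 with a filter of 5 TPM and 1 after quantile normalization (Mki67, lower, in each), 4 after median-ratio scaling (Bub1, Bub1b, Bub3 and Mki67), and 4 with the name series as a block and 4 without the trend (Bub1, Bub1b, Ccna2 and Mki67 in both), and it ranged from 0 to 4 when 1 library was left out, with 0 without RankCre-ki replicate 1 or 2. The number of all genes past the threshold, 0 as reported, ranged from 0 to 17 when 1 library was left out, with 17 without RankCre-ki replicate 1 and 8 without RankCre-ki replicate 2, where the lone library is assumed to vary like the wild-type group. Members with RankCre-ki above every wild-type library numbered 7 (18.8% of all genes), and 12 without RankCre-ki replicate 2 (33.8%) and 17 without RankCre-ki replicate 1 (32.6%). Those below numbered 3 (3.71%), and 5 without RankCre-ki replicate 1 (12.1%) and 6 without wild-type replicate 1 (12.3%). Fewer libraries to separate make non-overlap easier.

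The replicate numbers did not pair the libraries: deviations from the group means of same-numbered libraries correlated at -0.38 and -0.20 across genes. Libraries of 1 name series and different groups correlated at 0.20 to 0.38, and the deviations of the 2 RankCre-ki libraries are mirror images by construction. With the name series as a block, Mki67 had a log2 fold change of -3.00 (limma p of 0.0371, or 0.450 adjusted) and Ccna2 one of 2.56 (0.0398, or 0.457 adjusted). With the replicate number as a block, 1 gene of all tested (Gm28437) passed the threshold, 0 members had an unadjusted p under 0.05 and the log2 fold change of Ccnb1 was -0.069.

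The median of all genes moved from 0.52 to 0.16 with median-ratio scaling and to -0.09 with quantile normalization, and that of the members from 0.79 to 0.42 and 0.10. Median-ratio scaling reversed Ndc80 (-0.076) and Cks2 (-0.19), and quantile normalization reversed Ccnb1 (-0.10), Ndc80 (-1.004), Kif11 (-0.26), Anln (-0.44) and Cenpf (-0.20). Leaving out 1 library moved Cdc20 between -0.21 (without wild-type replicate 1) and 2.64, Ndc80 between -0.69 (without wild-type replicate 2) and 1.29, with -0.51 without RankCre-ki replicate 2, Cks1b between -0.93 and 0.36 (without wild-type replicate 2) and Ccnb1 between -0.069 (without wild-type replicate 3) and 2.56. Beyond the scalings, the cause was not tested.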

Other observations

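Level and transcript length can be set side by side for the members. Over the 42 members, Spearman's rho of the length of the longest coding transcript and log2(mean TPM + 1) was -0.31, a description over genes that share 5 libraries and a length-corrected unit. The 5 members with a mean of at least 50 TPM had longest coding transcripts of 692 to 4375 bases, with a median of 3414. The 16 members under 5 TPM had 1976 to 11130 bases, with a similar median of 3671. Mki67, at 10061 bases and a mean of 6.65 TPM, and Cenpf, at 11130 bases and 1.23 TPM, had the longest transcripts and differed in opposite directions between the groups, except after quantile normalization, where Cenpf was also below 0.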
